A study of Mus musculus with 48 samples.

Results

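Ly6 family surface proteins were followed in cultured mouse macrophages through 5 genes chosen by symbol, namely Ly6a, Ly6c1, Ly6c2, Ly6e and Ly6i. Of these, 4 were measured, each by 1 probe set, among 19505 genes on the arrays, and Ly6a was not analysed here. The liver's own macrophages, Kupffer cells, were taken from male Balbc (BALB/c) mice with magnets by their F4/80 antigen, and blood of the same animals gave monocytes by CD115. All cultures spent 1 day in MCSF, the growth factor that sustains macrophages. For a further 1 or 3 days they were held with Ito cells (the fat-storing stellate cells of the liver), with CD146 cells (its sinusoidal endothelial cells), with HGF (hepatocyte growth factor), or as controls in MCSF. These 2 cell types, 4 conditions and 2 times make 16 groups of 3 arrays, 48 arrays in all, and the titles call the replicates biological. No age or genetic change is given in the labels, and all groups shared the first day in MCSF. Contact between added cells and macrophages, removal of the added cells before RNA extraction, and the presence of MCSF next to an addition are not given in the sources used here, so transcripts of added cells may be among those measured. The p-values measure only the spread between these arrays.

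Ly6 proteins are small, cysteine-rich proteins with a single three-finger fold that are tethered to the outer cell membrane by a glycosylphosphatidylinositol (GPI) anchor. The Ly6C antigen, encoded by the neighbouring and near-identical genes Ly6c1 and Ly6c2, marks the classical, inflammatory monocytes of mouse blood and is lost as these cells mature, and Ly6c1 is also known from endothelial cells. Ly6e, an interferon-induced member, is the receptor of syncytin-A in the placenta and restricts the entry of coronaviruses. Ly6i is a close relative of the Ly6C genes. Because Ly6c1 and Ly6c2 are so alike, their probes may not tell their transcripts apart, and the 2 genes are not independent evidence of each other.

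The promoter sequences of the Ly6C pair are shown because each gene of the pair was, of all genes measured, the one whose group means ran most like the other's. They come from the RefSeq table of build GRCm38.p6, whose sequence is that of the C57BL/6J reference strain and not of the mice used. RefSeq windows matched 2 of the 5 genes, Ly6c1 and Ly6c2. The stretch for Ly6c1 is the 167 bases of its window that lie before the outermost annotated start, chr15:75048921-75049087 on the minus strand, and that for Ly6c2 has 155 bases, chr15:75112067-75112221 on the minus strand. Capitals mark the PU.1 core letters GAGGAA or their reverse complement, PU.1 being the transcription factor that macrophages depend on.
Ly6c1: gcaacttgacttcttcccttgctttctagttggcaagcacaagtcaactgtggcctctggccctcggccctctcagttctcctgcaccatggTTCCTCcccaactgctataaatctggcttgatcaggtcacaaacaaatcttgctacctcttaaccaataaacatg
Ly6c2: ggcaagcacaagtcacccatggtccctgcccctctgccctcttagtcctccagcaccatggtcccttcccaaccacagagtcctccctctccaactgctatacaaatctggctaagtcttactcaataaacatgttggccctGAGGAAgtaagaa
Aligned to each other, the 2 stretches were identical at 99 of 134 aligned bases, 73.9%. The 4 full windows of these genes, which hold the 250 bases before each annotated start, were searched on both strands. In 1 of them, a Ly6c1 window not shown, those bases lay inside the annotated gene. Each of the 4 windows held the PU.1 core letters at least once, as did 23.3% of 32851 windows of the same length in the table. The 2 windows of Ly6c2 overlap and share 1 of these matches. The 4 windows are therefore not separate promoters, and no enrichment can be read from them. None held the core of the interferon-stimulated response element (present in 2.98% of windows), TTCNNNGAA, the interferon gamma-activated site (7.02%), or an NF-kappaB site (1.21%). A match is a string of letters, not a bound site.

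Values are the deposited log2 signals, given for replicates 1, 2 and 3 of a group, and the error of a group mean is the SD over its 3 arrays. The arrays carry 5222 negative-control probe sets. Their median per group lay between 4.85 and 5.65, and their 95th percentile per group lay between 8.74 and 10.21. A member whose 3 arrays all lay under that percentile is called below background here, and a difference from such a group is only a lower bound. The highest deposited value was 19.93, and Ly6e lay near that end of the scale, so its differences may be understated. The mean correlation of an array with the others of its group ranged from 0.941 to 0.995 over all genes. Kupffer MCSF replicate 1 of 1 day (0.955), Kupffer HGF replicate 2 of 1 day (0.941) and monocytic MCSF replicate 3 of 3 days (0.977) were the lowest of their groups. They are called the arrays that stood apart, and values that changed most without them are also given that way. No cut-off defined them, and the other arrays of those Kupffer groups (0.962 to 0.975) also lay under 0.977. An alternative below is another processing or the loss of arrays, 15 in all for a difference between 2 groups and 21 for a difference of 2 responses. The core macrophage markers averaged at least 12.98 in every group. The list of Kupffer cell markers averaged 6.05 to 8.57 in the cells sorted by F4/80 and 4.73 to 8.10 in those sorted by CD115. At 1 day this list was higher in the F4/80 cells in every condition. At 3 days it was lower there in MCSF (7.77 against 8.10) and with CD146 cells (6.33 against 7.18). With HGF (8.57 against 7.37) and Ito cells (7.19 against 7.04) it was higher.

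**Figure D1:**
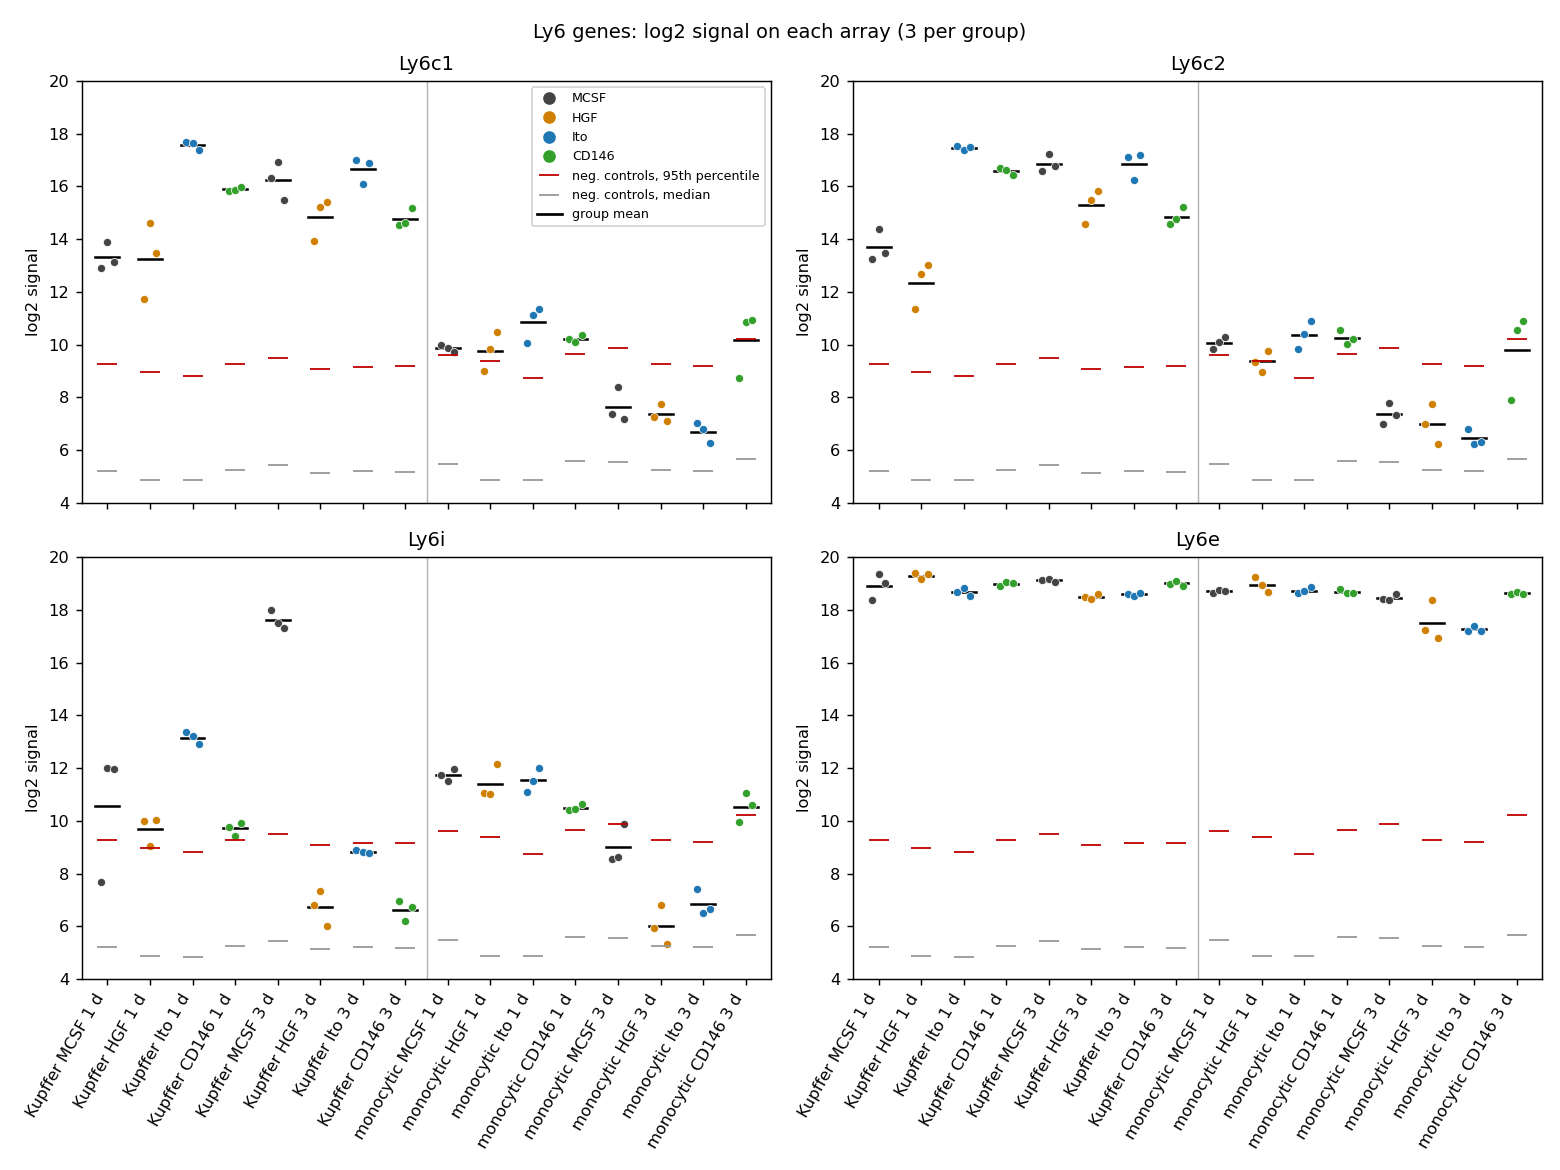
Log2 signal of Ly6c1, Ly6c2, Ly6e and Ly6i on each of the 48 arrays (points), with the mean of each of the 16 groups (bars), the median of the negative-control probe sets (grey) and their 95th percentile (red). Ly6c1 and Ly6c2 are above the red level in all 8 Kupffer groups, Ly6e is high in all 16 groups, and Ly6i reaches 17.61 in Kupffer cells kept 3 days in MCSF.

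The Ly6C pair separated the cells by origin. Ly6c1 was highest in Kupffer cells with Ito cells for 1 day, at 17.69, 17.65 and 17.40 (17.58 ± 0.16), and lowest in monocytic cells with Ito cells for 3 days, at 7.03, 6.79 and 6.28 (6.70 ± 0.39). Ly6c2 had the same extremes, 17.53, 17.37 and 17.48 (17.46 ± 0.08) against 6.81, 6.22 and 6.30 (6.44 ± 0.32). In both genes all 8 Kupffer groups ranked above all 8 monocytic groups. The step between the lowest Kupffer group, HGF for 1 day, and the highest monocytic group, Ito for 1 day, was 2.41 for Ly6c1 and 1.97 for Ly6c2, and the arrays of these 2 groups did not overlap. Of the 15 steps between neighbours in the order, the arrays overlapped in 9 for Ly6c1 and in 9 for Ly6c2. Monocytic cells fell below background for both genes at 3 days in MCSF, HGF and Ito cultures, whereas with CD146 cells 2 of their 3 arrays stayed above it.

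Ly6e was bright on every array. Its group means ran from 17.28 ± 0.11 in monocytic cells with Ito cells for 3 days to 19.30 ± 0.13 in Kupffer cells with HGF for 1 day. In all 15 neighbouring steps of that order the arrays overlapped, but at the step from the monocytic MCSF control of 3 days down to the monocytic HGF culture of that time the difference of 0.93 passed limma's test (adjusted p = 0.00302). Only monocytic cells kept 3 days with HGF (17.25, 18.38 and 16.93) or with Ito cells (17.21, 17.41 and 17.21) had means under 18.45, the mean of the monocytic MCSF control of that time.

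Ly6i followed another pattern, with a single peak. Kupffer cells kept 3 days in MCSF held 18.01, 17.51 and 17.30 (17.61 ± 0.37), which was 4.45 above the next group. That next group was Kupffer cells with Ito cells for 1 day, at 13.36, 13.21 and 12.90 (13.15 ± 0.23). The monocytic MCSF, Ito and HGF groups of 1 day came next with overlapping arrays, led by the MCSF control at 11.72, 11.51 and 11.98. Ly6i was below background in Kupffer cells after 3 days with HGF (6.81, 7.35 and 6.03), Ito cells (8.90, 8.80 and 8.77) or CD146 cells (6.97, 6.20 and 6.72), and in monocytic cells after 3 days with HGF or Ito cells. In the Kupffer control of 1 day its arrays disagreed, at 7.66, 12.01 and 11.96, and the low array is the one that stood apart. Of 15 neighbouring steps, 11 overlapped.

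Setting Kupffer against monocytic cells at the same condition and time asks how far origin marks the cells in culture. Differences are log2 differences of group means ± SE from limma, with p adjusted by Benjamini and Hochberg over 19505 genes and a threshold of 0.05, and every adjusted p in the text is of that kind. Of 32 tests of the 4 genes, 21 were higher in Kupffer cells and 2 were lower. Ly6c1 and Ly6c2 were higher in Kupffer cells in 8 of 8 comparisons each, Ly6e in 3 of 8, and Ly6i was higher in 2 and lower in 2. The share of all genes that passed, in either direction, was 21.3% in MCSF, 53.8% with HGF, 3% with Ito cells and 14.2% with CD146 cells at 1 day, and 12.1%, 20%, 8.81% and 25.8% in the same order at 3 days. In bulk RNA, fewer cells of a type and less RNA per cell cannot be told apart.

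At 1 day the Kupffer controls had Ly6c1 at 12.91, 13.89 and 13.15 and the monocytic controls at 9.99, 9.88 and 9.71, a difference of 3.46 ± 0.51 (adjusted p = 3.08e-06). For Ly6c2 the corresponding values were 13.25, 14.37 and 13.49 against 9.82, 10.09 and 10.28, a difference of 3.64 ± 0.47 (adjusted p = 2.11e-07). The groups did not overlap in either gene. With Ito cells for 1 day the difference was 6.72 ± 0.51 for Ly6c1 and 7.08 ± 0.47 for Ly6c2, in a comparison where 3% of all genes passed. With HGF it was 3.50 and 2.98 (3.10 and 2.58 relative to the median gene, which was shifted by 0.40), and with CD146 cells 5.67 and 6.31. Leaving out the arrays that stood apart brought the HGF value of Ly6c1 to 2.83. At 1 day 20 of 20 sinusoidal endothelial markers were also higher in the Kupffer control, where their mean was 8.04 ± 1.23 against 4.33 ± 0.02, and so were 7 of 15 neutrophil markers, while 2 were lower. Their part in the result was not tested.

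At 3 days the gap in MCSF was wider, with Ly6c1 at 16.32, 16.92 and 15.47 in Kupffer cells against 7.36, 8.41 and 7.17 in monocytic cells, and Ly6c2 at 16.59, 17.23 and 16.76 against 7.0, 7.78 and 7.31. The fitted differences were 8.60 ± 0.51 (adjusted p = 1.03e-16) and 9.50 ± 0.47 (adjusted p = 4.08e-19). Because the monocytic arrays were below background, they are bounds of at least 83.1-fold for Ly6c1 and at least 128-fold for Ly6c2, taken as the Kupffer mean against the higher of each dim value and the 95th percentile of its negative controls. Bounds were at least 47.7-fold and at least 65.2-fold with HGF, and at least 177-fold and at least 202-fold with Ito cells. The endothelial markers in these 3-day controls were at 4.36 ± 0.10 in Kupffer and 4.49 ± 0.07 in monocytic cells, with 17 or 18 of the 20 under the negative-control median on each Kupffer array, and the 2 that passed were lower in Kupffer cells. Neutrophil markers were at 6.13 ± 0.04 and 5.87 ± 0.02. With CD146 cells, where 2 of 3 monocytic arrays were above background, the differences were smaller, 4.61 ± 0.51 for Ly6c1 and 5.07 ± 0.47 for Ly6c2.

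Ly6e differed by origin at 3 days. It was higher in Kupffer cells in MCSF (0.66 ± 0.22, adjusted p = 0.0424), with HGF (0.99 ± 0.22, adjusted p = 0.000889) and with Ito cells (1.32 ± 0.22, adjusted p = 2.7e-05). The first of these passed in 8 of 15 alternatives, and it was lost after quantile normalization (0.55, adjusted p = 0.0835) and without any 1 of 5 of the 6 arrays (adjusted p = 0.0822 to 0.129). Neither the MCSF nor the HGF difference passed when only the arrays compared were fitted (adjusted p = 0.0753 and 0.0803). Ly6i was higher in the Kupffer control of 3 days, at 17.61 against 8.54, 8.62 and 9.88, a difference of 8.59 ± 0.58 (adjusted p = 6.79e-15). The monocytic arrays at 8.54 and 8.62 were under the background level, and the one at 9.88 is the one that stood apart, so the size is not exact with it or without it. It was lower in Kupffer cells with CD146 cells at 3 days, where monocytic cells held 9.96, 11.04 and 10.61, a bound of at least 2.57-fold. The other 2 Ly6i calls were HGF at 1 day (-1.72 ± 0.58, adjusted p = 0.0132) and Ito at 3 days, where both groups were below background. The HGF call was lost after quantile normalization (-1.17, adjusted p = 0.11), without Kupffer HGF replicate 2 (-1.39, adjusted p = 0.0835) and without monocytic HGF replicate 3 (-1.36, adjusted p = 0.0821). With Ito cells at 1 day Ly6i had a difference of 1.62 (adjusted p = 0.168), which passed without the arrays that stood apart (adjusted p = 0.000384). In the 1-day controls Ly6i had a difference of -1.19 (adjusted p = 0.144), and of 0.25 (adjusted p = 0.684) without the arrays that stood apart.

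**Figure D2:**
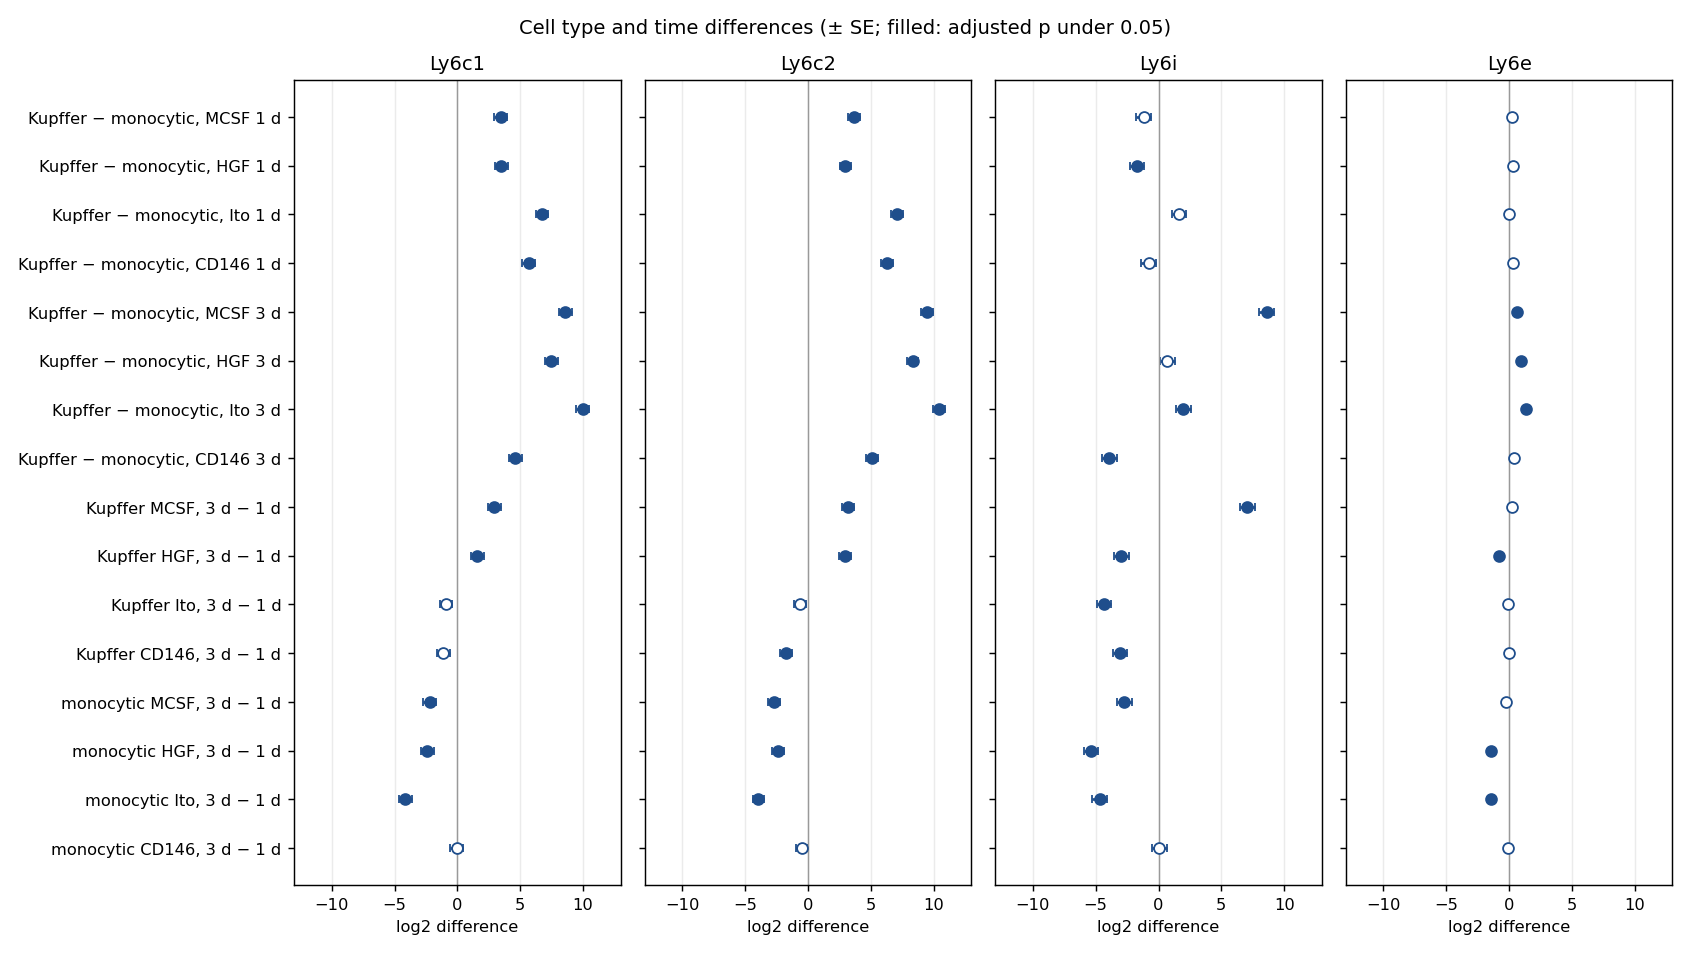
Log2 differences ± SE of the 4 genes, Kupffer minus monocytic cells in the same condition and time (8 comparisons) and 3 days minus 1 day in the same cells and condition (8 comparisons), with filled points at an adjusted p under 0.05. All Ly6c1 and Ly6c2 differences by origin are filled and above 0, up to 10.42 for Ly6c2 with Ito cells at 3 days, and the largest difference by time is the rise of Ly6i by 7.06 in Kupffer cells in MCSF.

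The Ly6C pair took opposite courses over time in the 2 cell types when kept in MCSF. From 1 to 3 days in MCSF, Ly6c1 rose in Kupffer cells by 2.92 ± 0.51 (adjusted p = 1.46e-05) and Ly6c2 by 3.16 ± 0.47 (adjusted p = 9.14e-07), with no overlap of arrays, and by 2.78 and 3.01 relative to the median gene. In monocytic cells over the same days Ly6c1 fell by 2.22 ± 0.51 (adjusted p = 0.000793) and Ly6c2 fell by 2.70 ± 0.47 (adjusted p = 1.81e-05), to levels below background, so that these sizes are not exact. Over all 8 time comparisons, 5 of 32 tests of the 4 genes were higher at 3 days and 16 were lower. Among all genes 31.8%, 42.7%, 48.6% and 24.6% passed in Kupffer cells with MCSF, HGF, Ito and CD146 cells, and 29.3%, 60.6%, 41.5% and 27.2% in monocytic cells. No test of the difference between these 2 courses was run.

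With HGF, Ly6c2 also rose in Kupffer cells from 11.35, 12.68 and 13.02 to 14.59, 15.51 and 15.83, by 2.96 ± 0.47 (adjusted p = 2.55e-06), and Ly6c1 rose by 1.59 ± 0.51 (adjusted p = 0.0106), a call that held in 10 of 15 alternatives. The Ly6c1 rise was 0.82 (adjusted p = 0.187) without HGF replicate 1 of 1 day, whereas without the arrays that stood apart it was 2.26 (adjusted p = 0.000352). The call was also lost without HGF replicate 3 of 3 days (1.32, adjusted p = 0.0646), after quantile normalization (1.04, adjusted p = 0.122) or median centring (1.17, adjusted p = 0.0533), and with only the arrays compared (adjusted p = 0.166). With CD146 cells Ly6c2 fell in Kupffer cells by 1.73 ± 0.47 (adjusted p = 0.00516), and Ly6c1 had a difference of -1.12 (adjusted p = 0.106), which passed in 3 of 15 alternatives. With Ito cells neither passed in Kupffer cells, at -0.91 for Ly6c1 and -0.61 for Ly6c2, although both passed after median centring of the arrays (-1.56 and -1.25) and with only the arrays compared (adjusted p = 0.00385 and 0.0395). In monocytic cells with Ito cells the fall was at least 3.15-fold for Ly6c1 and at least 2.27-fold for Ly6c2. Monocytic cells with CD146 cells were the exception, with 0 of the 4 genes passing by limma, 0 at an unadjusted p under 0.05, and differences between -0.48 and 0.05.

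Ly6i rose over time only in the Kupffer control, by 7.06 ± 0.58 (adjusted p = 1.01e-12) and by 5.62 without the array at 7.66. It fell in 6 of the other 7 comparisons, among them in Kupffer cells with Ito cells, from 13.15 to 8.83, a fall of at least 15.9-fold, and in monocytic cells with HGF (at least 4.36-fold) or Ito cells (at least 5.05-fold). Ly6e fell in monocytic cells with HGF (-1.44 ± 0.22, adjusted p = 1.24e-06) and with Ito cells (-1.46 ± 0.22, adjusted p = 1.42e-06), and from 19.30 to 18.50 in Kupffer cells with HGF (-0.80 ± 0.22, adjusted p = 0.00342), where quantile normalization turned the direction to 0.19 (adjusted p = 0.524) and the call was lost with only the arrays compared (adjusted p = 0.0854). The median gene was higher at 3 days by 0.71 in monocytic HGF cultures, 0.44 in monocytic Ito cultures and 0.51 in Kupffer Ito cultures, and relative to it the Ly6i differences were -6.09, -5.12 and -4.84 there.

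Each addition was then set against the MCSF control of the same cell type and time. Of 48 tests of the 4 genes, 7 were higher and 13 were lower than the control. Ly6c1 rose in 3 of 12 comparisons and fell in 2, Ly6c2 rose in 3 and fell in 3, Ly6e fell in 3, and Ly6i rose in 1 and fell in 5. In monocytic cells at 1 day 0 of 12 tests passed by limma, against 1 at an unadjusted p under 0.05, in comparisons where 37.5% of all genes passed with HGF, 15.5% with Ito cells and 2.33% with CD146 cells. Several of these 12 passed under an alternative. Ly6i in the CD146 culture had a difference of -1.26 (adjusted p = 0.422), which passed with only the arrays compared (adjusted p = 0.000975), with array weights (adjusted p = 0.0059) and without the arrays that stood apart (adjusted p = 0.00999). Ly6c1 had a difference of 0.99 with Ito cells (adjusted p = 0.179), which passed with only the arrays compared (adjusted p = 0.0238) and with array weights (adjusted p = 0.0453). With HGF, Ly6c2 passed with only the arrays compared (-0.70, adjusted p = 0.0337), and Ly6e passed after median centring (0.84, adjusted p = 0.03).

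In Kupffer cells at 1 day the Ly6C pair was higher with both kinds of added liver cells. The controls held Ly6c1 at 12.91, 13.89 and 13.15, the Ito cultures at 17.69, 17.65 and 17.40, and the CD146 cultures at 15.85, 15.86 and 16 (15.90 ± 0.08). No arrays overlapped between these 3 groups. Ly6c1 rose by 4.26 ± 0.51 with Ito cells (adjusted p = 5.17e-08) and by 2.59 ± 0.51 with CD146 cells (adjusted p = 0.000897). Ly6c2 rose by 3.75 ± 0.47 (adjusted p = 1.3e-07) and 2.88 ± 0.47 (adjusted p = 6.72e-05), from 13.25, 14.37 and 13.49 to 17.53, 17.37 and 17.48 and to 16.70, 16.61 and 16.44. Among all genes 23.5% passed with Ito cells and 3.78% with CD146 cells. The median gene had a difference of -0.24 with Ito cells, relative to which the rises were 4.51 for Ly6c1 and 4.00 for Ly6c2. Without the control array that stood apart, and the other 2 such arrays, the rises were 4.06 and 2.38 for Ly6c1 and 3.53 and 2.65 for Ly6c2. With HGF, where 17.5% of all genes passed, Ly6c1 did not pass (-0.05, adjusted p = 0.957) and Ly6c2 fell by 1.36 ± 0.47 (adjusted p = 0.0402). That fall held in 8 of 15 alternatives. It was lost after quantile normalization (adjusted p = 0.157), median centring (adjusted p = 0.0813), with only the arrays compared (adjusted p = 0.547), and without any 1 of 4 arrays, down to -0.86 (adjusted p = 0.198) without HGF replicate 1.

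Ly6i, at 7.66, 12.01 and 11.96 in the control, rose with Ito cells to 13.36, 13.21 and 12.90, by 2.61 ± 0.58 (adjusted p = 0.0011). The rise was 1.17 (adjusted p = 0.016) without the arrays that stood apart, and it did not pass when only the arrays compared were fitted (adjusted p = 0.152). With CD146 cells and with HGF its differences were -0.84 and -0.86 and did not pass. Without the arrays that stood apart both passed, at -2.28 (adjusted p = 8.83e-06) and -1.98 (adjusted p = 0.000799). Ly6e passed in 0 of 3 comparisons at 1 day by limma, and in 0 at an unadjusted p under 0.05, while with array weights it passed with Ito cells (-0.62, adjusted p = 0.00124).

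Markers of other cells moved along with the Ly6C pair in these 1-day Kupffer cultures. The 15 neutrophil markers averaged 7.19, 9.07 and 9.04 in the control, 10.61 ± 0.10 with Ito cells and 9.93 ± 0.07 with CD146 cells, with 10 higher and 1 lower with Ito cells and 9 higher and 1 lower with CD146 cells. The neutrophil granule gene Ngp was at 16.26 with Ito cells, at 15.19 with CD146 cells and at 10.26 in the control. Of the 15 markers, 3 (S100a8, S100a9 and Mmp8) are also on the list of classical monocyte genes, and Ly6g was not analysed here. The 20 sinusoidal endothelial markers went the other way, 20 lower with Ito cells and 15 lower with CD146 cells, from 8.04 ± 1.23 to 5.46 ± 0.07 and 5.82 ± 0.07. Ito cell markers did not rise as a list, with 1 of 16 higher and 3 lower in the Ito cultures. The part of neutrophil transcripts in the Ly6c1 and Ly6c2 rises was not tested.

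After 3 days Ly6i, so high in the Kupffer control, was below background with every addition. It fell from 18.01, 17.51 and 17.30 in MCSF to 6.73 ± 0.66 with HGF, 8.83 ± 0.07 with Ito cells and 6.63 ± 0.39 with CD146 cells. The fitted differences were -10.88 ± 0.58 with HGF (adjusted p = 1.89e-18), -8.78 ± 0.58 with Ito cells (adjusted p = 1.41e-15) and -10.98 ± 0.58 with CD146 cells (adjusted p = 1.34e-18). As bounds, Ly6i was at least 347-fold lower with Ito cells and at least 345-fold lower with CD146 cells, and on the log2 scale at least 8.53 lower with HGF. Among all genes 27.6% passed with HGF, 26.8% with Ito cells and 26.4% with CD146 cells, and the 3 comparisons share their control arrays. Core macrophage markers fell in the same cultures, 12, 10 and 11 of 13, from a mean of 16.38 to 13.37, 13.75 and 12.98. All 15 cell cycle genes rose with each addition, from a mean of 6.90 to 12.36, 11.92 and 12.55, and so did all 5 cholangiocyte markers, from 3.78 to 9.24, 7.04 and 8.06. Their part in the Ly6i result was not tested.

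The Ly6C pair moved less in those cultures. Ly6c2 fell from 16.59, 17.23 and 16.76 to 14.59, 15.51 and 15.83 with HGF (-1.55 ± 0.47, adjusted p = 0.00943) and to 14.59, 14.76 and 15.21 with CD146 cells (-2.01 ± 0.47, adjusted p = 0.000813). Ly6c1 also fell, with differences of -1.38 ± 0.51 (adjusted p = 0.0369) and -1.46 ± 0.51 (adjusted p = 0.0273). With Ito cells neither passed, and the arrays of Ly6c1 (17.00, 16.11 and 16.89) and Ly6c2 (17.11, 16.26 and 17.19) overlapped with the control. The Ly6c1 fall with HGF did not pass without HGF replicate 1 (-0.93, adjusted p = 0.249), MCSF replicate 1 (adjusted p = 0.083) or MCSF replicate 2 (adjusted p = 0.21). The Ly6c2 fall with HGF did not pass without HGF replicate 1 (adjusted p = 0.0864) or MCSF replicate 2 (adjusted p = 0.0549), and the Ly6c1 fall with CD146 cells was lost without any 1 of 4 arrays (adjusted p = 0.0656 to 0.174). Ly6e fell with HGF by 0.61 ± 0.22 (adjusted p = 0.034), from 19.13, 19.17 and 19.06 to 18.49, 18.42 and 18.60, a call that held in 8 of 15 alternatives. It was lost after quantile normalization (-0.28, adjusted p = 0.385), with only the arrays compared (adjusted p = 0.0817) and without any 1 of 5 of the 6 arrays (adjusted p = 0.0591 to 0.0987). With Ito cells Ly6e had a difference of -0.52 (adjusted p = 0.0824), which passed in 3 of 15 alternatives.

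Monocytic cells of 3 days had more of the Ly6C pair when kept with CD146 cells. Ly6c1 was at 8.73, 10.84 and 10.94 against 7.36, 8.41 and 7.17 in MCSF, and Ly6c2 was at 7.90, 10.56 and 10.90 against 7.0, 7.78 and 7.31. Ly6c1 was higher by 2.53 ± 0.51 (adjusted p = 0.002) and Ly6c2 by 2.42 ± 0.47 (adjusted p = 0.00135), where 2.4% of all genes passed. The first CD146 array lay close to the controls in both genes, and neither call held when only the arrays compared were fitted (adjusted p = 0.0846 and 0.153). The controls were below background, and the CD146 means of 10.17 and 9.78 lay under the 95th percentile of their own negative controls (10.21). No fold is therefore given for either gene. Neutrophil markers on the same CD146 arrays averaged 6.03, 6.83 and 6.81 against 5.87 ± 0.02, with 2 of 15 higher, and of 18 classical monocyte genes 6 were higher. Their part was not tested. Ly6i had a difference of 1.52 (adjusted p = 0.198) from a control with 2 of 3 arrays under background, and of 1.96 (adjusted p = 0.000234) without the arrays that stood apart.

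With HGF and with Ito cells, Ly6e and Ly6i were the genes that fell in monocytic cells of 3 days. Ly6c1 and Ly6c2 were below background in these cultures and in their control, so a fall of the pair could not be seen. Ly6e went from 18.40, 18.38 and 18.59 to 17.25, 18.38 and 16.93 with HGF (-0.93 ± 0.22, adjusted p = 0.00302) and to 17.21, 17.41 and 17.21 with Ito cells (-1.18 ± 0.22, adjusted p = 0.000199). The HGF arrays touched the control in 1 of 3 cases, and that call was lost without HGF replicate 3 (-0.64, adjusted p = 0.0765) and with only the arrays compared (adjusted p = 0.147). Ly6i had control values of 8.54, 8.62 and 9.88, of which 2 were under the background level, and differences of -2.99 ± 0.58 with HGF (adjusted p = 0.000337) and -2.15 ± 0.58 with Ito cells (adjusted p = 0.00924), with no fold to be given. Without the control array that stood apart, the one at 9.88, the Ito difference was -1.72 (adjusted p = 0.0625, and 0.000246 without all 3 such arrays). The share of all genes that passed was 13% with HGF and 12.5% with Ito cells.

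**Figure D3:**
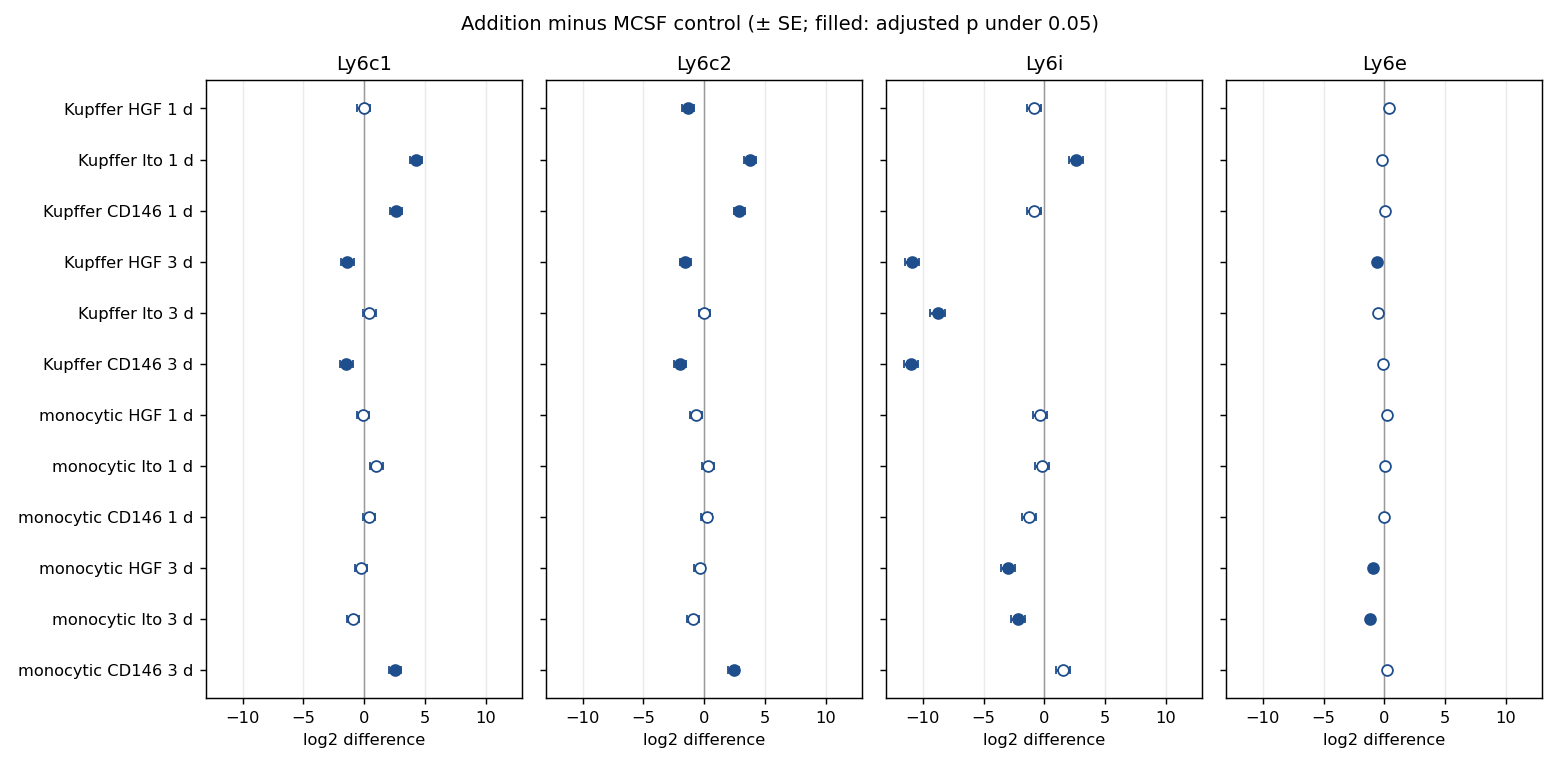
Log2 differences ± SE between each addition (HGF, Ito cells, CD146 cells) and the MCSF control of the same cells and time for the 4 genes, with filled points at an adjusted p under 0.05. Ly6c1 and Ly6c2 are higher with added cells in Kupffer cells at 1 day and with CD146 cells in monocytic cells at 3 days, and Ly6i stands at -8.78 to -10.98 from its control in the Kupffer cultures of 3 days.

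The added cell types were also compared with each other. In 16 tests of the 4 genes, 5 were higher with Ito cells and 4 were lower, and the share of all genes that passed was 27.4% and 3.08% in Kupffer cells at 1 and 3 days and 19.8% and 11.3% in monocytic cells. In Kupffer cells of 1 day Ly6c1 was 1.68 ± 0.51 higher with Ito than with CD146 cells (adjusted p = 0.0124) and Ly6i was 3.45 ± 0.58 higher (adjusted p = 2.7e-05), at 13.15 against 9.78, 9.42 and 9.93. Relative to the median gene these were 1.95 and 3.72. At 3 days Ly6c1 (1.89 ± 0.51, adjusted p = 0.0268) and Ly6c2 (2.00 ± 0.47, adjusted p = 0.00732) were higher with Ito cells. The Ly6c1 call was lost without any 1 of 4 of the 6 arrays (1.72 to 1.80, adjusted p = 0.113 to 0.135). The Ly6c2 call was lost without CD146 replicate 1 (adjusted p = 0.0569) or Ito replicate 3 (adjusted p = 0.0599). On those 3-day Kupffer arrays 10 of 15 neutrophil markers were higher too, at 9.89 ± 0.44 against 6.86 ± 0.38. In monocytic cells of 1 day 0 of the 4 genes passed by limma, with 0 at an unadjusted p under 0.05, although Ly6i (1.05, adjusted p = 0.201) passed in 3 of 15 alternatives. At 3 days all 4 were lower with Ito than with CD146 cells. For Ly6e that difference was -1.36 ± 0.22 (adjusted p = 1.91e-05), and the bound was at least 2.53-fold for Ly6i. No fold is given for Ly6c1 and Ly6c2, whose CD146 means (10.17 and 9.78) lay under the 95th percentile of their negative controls (10.21).

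Whether the difference that came with an addition was unequal in the 2 cell types was tested as the Kupffer difference minus the monocytic difference. Of 24 such tests 4 were above 0 and 5 below, against 2 above and 5 below after quantile normalization. All genes passed in 23.1%, 3.74% and 0.877% of cases for HGF, Ito and CD146 cells at 1 day and in 15.2%, 8.75% and 18.2% at 3 days. With Ito cells at 1 day the Kupffer response exceeded the monocytic one by 3.27 ± 0.72 for Ly6c1 (adjusted p = 0.00497) and 3.44 ± 0.66 for Ly6c2 (adjusted p = 0.00119). With CD146 cells at 1 day the Kupffer response of Ly6c2 was larger by 2.67 ± 0.66 (adjusted p = 0.0335), a call that held in 9 of 21 alternatives and was lost after quantile normalization (adjusted p = 0.0536) and without any 1 of 11 of the 12 arrays (adjusted p = 0.051 to 0.0999). For Ly6c1 the value was 2.22, which passed in 2 of 21 alternatives. At 3 days with CD146 cells the value was -4.43 ± 0.66 for Ly6c2 (adjusted p = 1.49e-06) and -3.99 ± 0.72 for Ly6c1 (adjusted p = 3.75e-05). The 2 responses went opposite ways there. Ly6c2 and Ly6c1 had differences of -2.01 and -1.46 in Kupffer cells and of 2.42 and 2.53 in monocytic cells. The monocytic control was below background for both genes, so these sizes are not exact. Ly6i differed by -12.50 ± 0.83 with CD146 cells at 3 days (adjusted p = 6.07e-15), by -7.89 ± 0.83 with HGF (adjusted p = 1.43e-09) and by -6.63 ± 0.83 with Ito cells (adjusted p = 1.07e-07). Ly6e passed in 0 of these 6 tests by limma, against 1 at an unadjusted p under 0.05.

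Other members of the Ly6 and uPAR family, which share the three-finger fold, were mostly silent. Of 37 listed relatives 33 were measured, and 30 never had a group mean above the 95th percentile of the negative controls. Plaur, the urokinase receptor, was above it in 16 of 16 groups, between 9.62 in Kupffer cells kept 3 days in MCSF and 17.11 in monocytic cells with Ito cells for 1 day. Cd59a, an inhibitor of the complement attack complex, was above it in 10 groups and Ly6d, a marker of lymphoid progenitors, in 1. Kupffer cells with Ito cells for 1 day, where Ly6c1 peaked, had Plaur at 16.88 against 14.61 in the control (2.27, adjusted p = 4.62e-06), with 3 of the 33 relatives higher and 11 lower (median -0.39), where 1067 of all 19505 genes were higher and 3517 lower (median -0.24). Of the 11 lower relatives only Cd59a and Ly6d were above the 95th percentile of the negative controls in any group. Genes that build and attach the GPI anchor on which Ly6 proteins depend rose in Kupffer cells from 1 to 3 days in MCSF, 18 of 28 with a median difference of 1.06, where 31.8% of all genes passed (4201 higher and 1996 lower, median 0.15). With HGF at 3 days 12 of 28 were lower than the control and 2 higher, with a median of -0.62, where 27.6% of all genes passed (2824 higher and 2562 lower).

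The interferon genes were followed because Ly6e and the Ly6C genes are known to answer interferon. Type I interferon-stimulated genes were higher in Kupffer than in monocytic cells in the 3-day MCSF controls in 28 of 28 cases, with a median difference of 3.66, against 12.1% of all genes called and a median over all genes of -0.02. Irf7, the transcription factor that amplifies the interferon response, was at 15.64 against 8.87, and Ifit1, which binds foreign RNA, at 11.54 against 6.0. Of the interferon gamma-responsive genes 17 of 20 were higher, with a median of 3.02, among them Gbp2, a guanylate-binding protein, at 15.25 against 9.70, and its relative Gbp3 at 12.73 against 8.60. The monocytic levels of these 4 genes were under the 95th percentile of the negative controls there (9.86), so their differences are not exact. The Kupffer controls of 3 days also carried the highest Ly6i of all groups and a Ly6c2 mean of 16.86 ± 0.33. Kupffer Ito cultures had more Ly6c2 at 1 day and a level of 16.85 ± 0.51 at 3 days, with arrays that overlapped the control. Their interferon-stimulated list means were lower, at 9.86 and 9.87 against 11.65 in that control. From 1 to 3 days in MCSF, 25 of 28 interferon-stimulated genes rose in Kupffer cells, with a median of 2.33, and in monocytic cells 20 fell and 1 rose, with a median of -1.34, where the medians over all genes were 0.15 and 0.13. Ly6e did not pass over those days, at 0.19 in Kupffer cells (adjusted p = 0.55) and -0.26 in monocytic cells (adjusted p = 0.427).

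In Kupffer cells of 3 days these lists were lower with each addition, as Ly6i was. Interferon-stimulated genes fell in 22, 22 and 16 of 28 cases with HGF, Ito and CD146 cells and rose in 1, 1 and 2. Interferon gamma-responsive genes fell in 15, 17 and 15 of 20, with medians of -2.02, -2.51 and -2.10, and the medians over all genes lay between -0.00094 and 0.11. Ly6c1 and Ly6c2 also fell with HGF and with CD146 cells, but neither passed with Ito cells (0.42 and -0.007, adjusted p = 0.606 and 0.995). Gbp2 fell with Ito cells (-6.94, adjusted p = 1.89e-17) to 8.31, under the background level, Cd274, the gene of the checkpoint ligand PD-L1, with CD146 cells (-5.40, adjusted p = 7.25e-15), and Jak2, a kinase of the interferon gamma receptor, with HGF (-4.29, adjusted p = 5.66e-15). At 1 day in Kupffer cells, where Ly6i was higher with Ito cells, 14 of 20 interferon gamma-responsive genes rose and 1 fell, with a median of 1.38 against -0.24 over all genes, while 5 of 28 interferon-stimulated genes rose. Gbp4 was up by 3.39 there (adjusted p = 4.56e-07), from 8.36, under the background level. In monocytic cells of 3 days, where Ito cultures had lower Ly6 levels than CD146 cultures, 23 of 28 interferon-stimulated and 14 of 20 interferon gamma-responsive genes were lower too.

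Classical monocyte genes moved with the Ly6C pair in part. With Ito cells for 1 day, 10 of 18 rose in Kupffer cells and 1 fell, among them Chil3, a chitinase-like lectin, at 14.65 against 9.09 (under the background level), with a median difference of 1.38. With CD146 cells 5 rose and 1 fell. From 1 to 3 days in MCSF, 13 of 18 fell and 2 rose in monocytic cells, including Vcan, a proteoglycan, from 13.66 to 7.46 (under the background level), and in Kupffer cells 9 fell and 4 rose while Ly6c1 and Ly6c2 rose. In the 1-day controls, where Ly6c1 was higher in Kupffer cells, 8 of 18 were lower there and 2 higher.

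Likeness between genes was measured as the Pearson correlation of the 16 group means, and within the 8 Kupffer and the 8 monocytic groups, as a description over points that share arrays and normalization. Ly6c1 and Ly6c2 had r = 0.995, and each was the first of 19504 genes for the other, which may in part be the same transcript read by both. Ly6i had r = 0.346 with Ly6c1 over all groups, 0.391 within Kupffer cells and 0.902 within monocytic cells. Ly6e had r = 0.614 with Ly6c1 over all groups, but -0.461 within Kupffer cells and 0.863 within monocytic cells. Within monocytic groups the correlations among the 4 genes were all 0.861 or more, and within Kupffer groups those outside the Ly6C pair lay between -0.504 and 0.391. Ly6c1 and Ly6c2 were below background in the monocytic MCSF, HGF and Ito groups of 3 days, and Ly6i in the HGF and Ito groups. The monocytic values thus in part set groups of 1 day against groups at background. The same limit holds for the other monocytic correlations of Ly6c1, Ly6c2 and Ly6i below.

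Beyond the pair itself, the genes most like Ly6c2 were Ifi208 (r = 0.877) and Ifi213 (r = 0.854), which encode interferon-activated proteins of the PYHIN family, Plac8 (r = 0.849), a gene of classical monocytes, Tgtp2 (r = 0.847), an interferon-inducible GTPase, and Trim25 (r = 0.844), a ubiquitin ligase. Within Kupffer groups r with Ly6c2 was lower, at 0.19 for Plac8 and 0.602 to 0.625 for the others. Within monocytic groups it ran from 0.56 for Plac8 to 0.906 for Trim25. The same 5 genes led for Ly6c1, from Ifi208 at 0.869 to Trim25 at 0.837. Ly6e had Irf7 (r = 0.748), Ifi213 (r = 0.748), Ehd1 (r = 0.741), Selenow (r = 0.712) and Vcan (r = 0.708). Within Kupffer groups these were 0.294, -0.194, 0.359, -0.252 and -0.196 in the same order, and within monocytic groups between 0.736 and 0.857. Ly6i had closer company, with H2-Q5, a nonclassical class I antigen gene (r = 0.939), Rasgrp1, an activator of Ras (r = 0.937), Jak2 (r = 0.928), the complement factor gene Cfb (r = 0.927) and the receptor gene Gpr18 (r = 0.913). These 5 held within Kupffer groups at 0.951 or more and within monocytic groups at 0.775 or more. All 5 were highest in Kupffer cells kept 3 days in MCSF, where Ly6i stood 4.45 above its next group. Ly6i was below background in the other Kupffer groups of 3 days. That 1 group may therefore set much of these values, which was not tested.

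The mean of the interferon-stimulated list correlated with Ly6c2 at r = 0.744 over 16 groups, at 0.393 within Kupffer and 0.768 within monocytic groups. With Ly6e the same list had r = 0.584, -0.0836 and 0.713 in that order. The interferon gamma list correlated with Ly6i at r = 0.732, at 0.786 and 0.725 within the cell types. Ly6i ran against the cell cycle list, at r = -0.73 over all groups, -0.864 within Kupffer and -0.969 within monocytic groups. Within monocytic groups Ly6c1 (-0.94), Ly6c2 (-0.933) and Ly6e (-0.979) did so too. Within Kupffer groups their values were -0.0552, 0.00296 and -0.532. In the monocytic MCSF control of 3 days the cell cycle list averaged 8.38 ± 2.78, from 6.71 to 11.59 on its arrays. The monocytic correlations with this list depend on that loosely fixed mean. Ly6i ran with the core macrophage list within Kupffer groups, at 0.905, and within monocytic groups it did not, at -0.0077. The Kupffer control of 3 days was the highest Kupffer group for both, with the list at 16.38, and may set much of the 0.905.

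**Figure D4:**
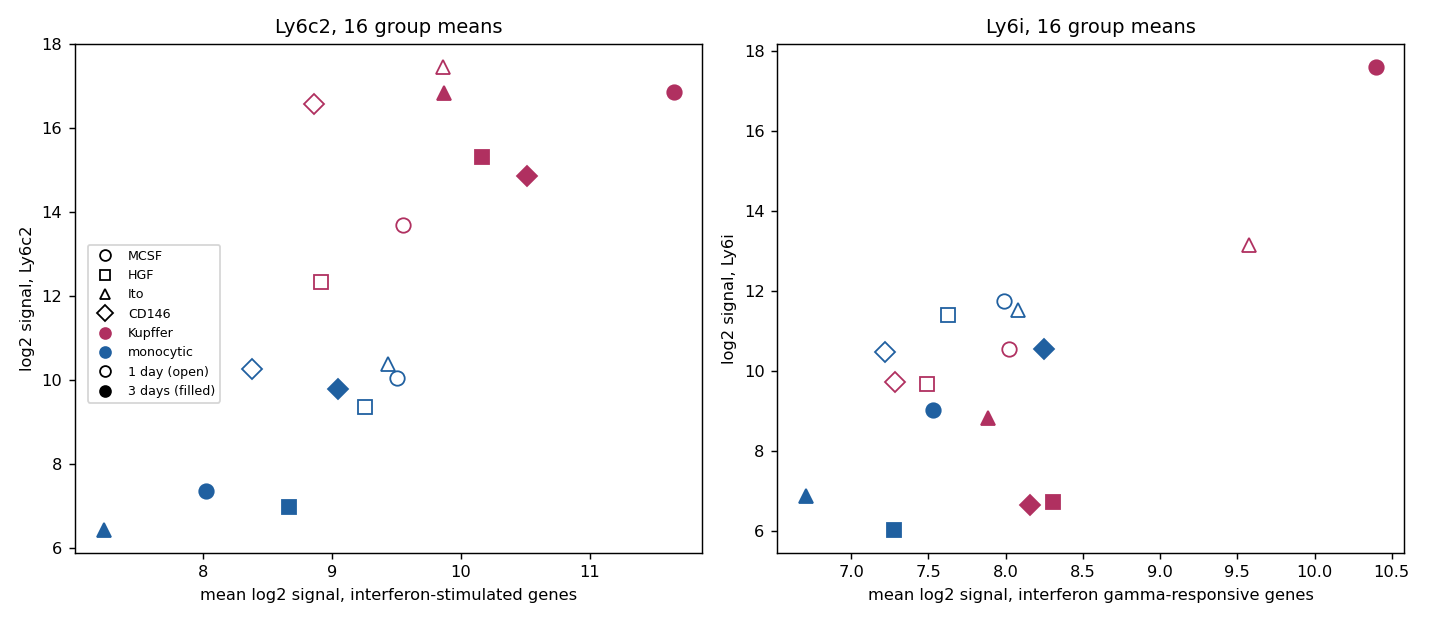
Group means of Ly6c2 against the mean of the interferon-stimulated list and of Ly6i against the mean of the interferon gamma list, both log2, for the 8 Kupffer and the 8 monocytic groups. Kupffer cells kept 3 days in MCSF stand at the upper right for Ly6i, at 17.61 with a list mean of 10.40.

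Neutrophil markers correlated with Ly6c1 at r = 0.762 over 16 groups, 0.472 within Kupffer and 0.93 within monocytic groups. The part of neutrophil transcripts in the Ly6c1 levels was not tested. The Kupffer control of 3 days had Ly6c1 at 16.24 ± 0.73 and neutrophil markers at 6.13 ± 0.04, of which 10 or 11 of 15 were under the negative-control median on each array. Kupffer cells of 3 days had Ly6c1 at 14.78 and neutrophil markers at 6.86 with CD146 cells, and 14.86 and 7.51 with HGF. In the monocytic MCSF, Ito and CD146 cultures of 1 day the neutrophil markers were at 7.27, 7.40 and 7.51, with Ly6c1 at 9.86, 10.85 and 10.23. B cell markers in the Kupffer control of 1 day were at 4.06 on replicate 1, the array with the low Ly6i, and at 9.12 and 10.10 on the other arrays.

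**Figure D5:**
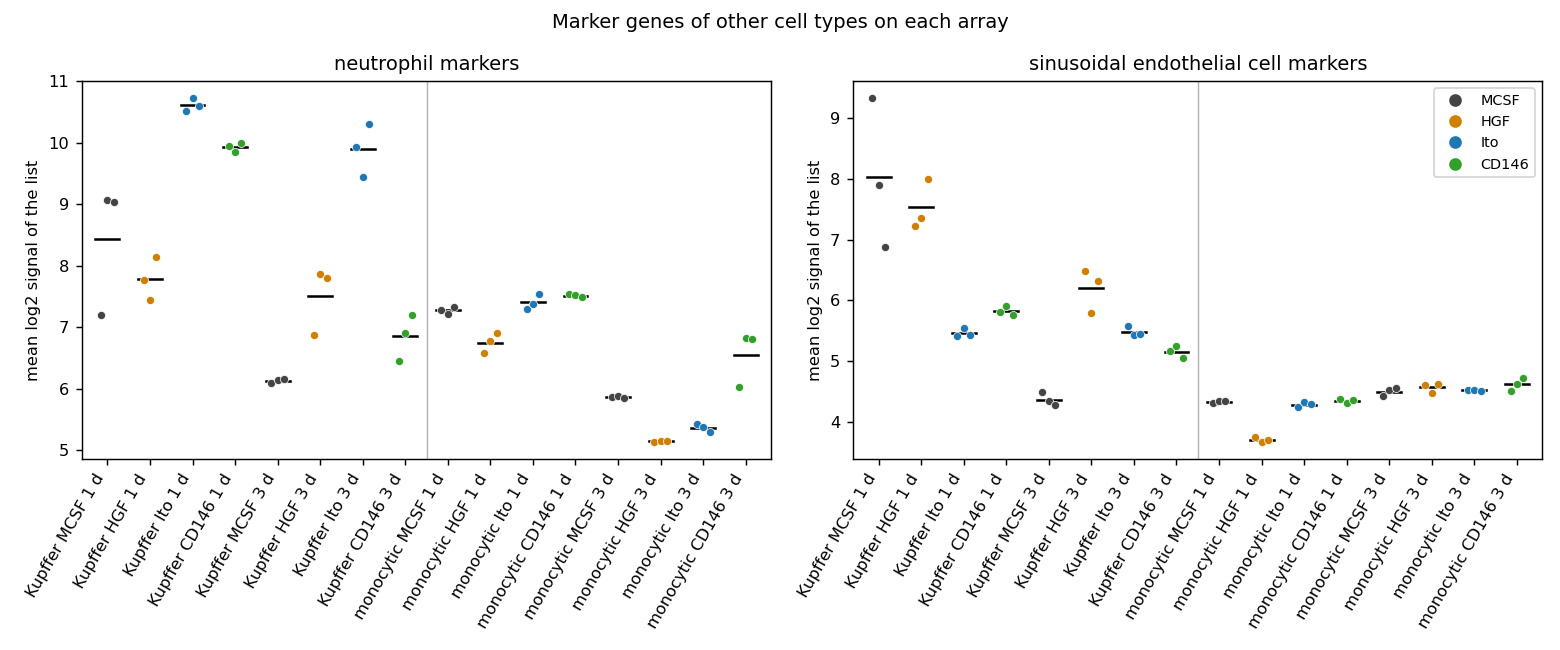
Mean log2 signal of the neutrophil list (15 genes) and the sinusoidal endothelial list (20 genes) on each of the 48 arrays, by group. Neutrophil markers are highest in Kupffer cells with Ito cells for 1 day (10.61), and endothelial markers are highest in the Kupffer control of 1 day (8.04) and 4.36 in that of 3 days.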

How the data were processed

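RNA from 48 cultures was measured on 1-colour Affymetrix arrays. The values are log2 signals as the authors deposited them, made by RMA within the Transcriptome Analysis Console per the submitters' processing notes. Tool versions and the genome build are not given in the sources used here. Of 28846 probe sets, 6640 controls and 2634 transcript probe sets without a symbol were set aside, and 55 genes that had more than 1 probe set were read from the brightest on average, leaving 19505 genes with no filter on level.

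The model was fitted by limma (3.58.1, with the data.table package at 1.17.8, under R 4.3.3) to all arrays at once, each group having its own mean, and p-values were two-sided and adjusted within each of 38 contrasts. The fit was tested on simulated data. Equal replicate numbers showed no pairing of arrays. Deviations from group means correlated by -0.0103 for equal and 0.0055 for different numbers. All 3 correlations of equal numbers passed 0.1 in 1 of 120 pairs of groups. Pairing by shared animals under another numbering was not tested, and the model treats all arrays as independent. Ly6a was not analysed here. Named genes were the other members, the 5 genes most correlated with each, and up to 4 genes per list with the smallest adjusted p. The members, lists and tests were chosen with earlier results of these data known. Promoters were read from RefSeq and aligned with Biopython 1.88, with tables from pandas 2.3.3 and plots from matplotlib 3.10.9 under Python 3.11.15. Alternatives were quantile normalization, median centring, removal of the dimmest 25 percent of genes, array weights, a robust variance with trend, a replicate block, the mean of probe sets, only the arrays compared, leaving out the 3 arrays that stood apart, and leaving out each array in turn.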

Additional observations from a re-analysis of the deposited data

Results flagged for a closer look

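The Kupffer response differed from the monocytic response, by limma's test of the difference itself, in 9 of 24 cases among the Ly6 genes. With Ito cells at 1 day the Kupffer response was larger by 3.27 for Ly6c1, 3.44 for Ly6c2 and 2.81 for Ly6i (adjusted p = 0.0445 for the last). The Ly6i call held in 7 of 21 alternatives: it was lost with only the arrays compared (adjusted p = 0.235), after quantile normalization (2.38, adjusted p = 0.0776), with the trend and robust variance model (adjusted p = 0.053), without the 3 arrays that stood apart (adjusted p = 0.0943), and without any 1 of 10 of the 12 arrays. Its size changed most without Kupffer MCSF replicate 1, to 1.37 (adjusted p = 0.206), and the other 9 such values lay between 2.59 and 3.04. With CD146 cells at 1 day it was larger by 2.67 for Ly6c2, and this held in 9 of 21 alternatives, being lost after quantile normalization (2.55, adjusted p = 0.0536) and without any 1 of 11 of the 12 arrays (2.45 to 2.81, adjusted p = 0.051 to 0.0999). With HGF at 1 day the Ly6i value of -0.53 (adjusted p = 0.693) became -1.64 (adjusted p = 0.019) without the 3 arrays that stood apart. At 3 days the Kupffer response was the lower one, by -3.99 for Ly6c1, -4.43 for Ly6c2 and -12.50 for Ly6i with CD146 cells, and for Ly6i by -7.89 with HGF and -6.63 with Ito cells. In each of these 3-day comparisons an arm of the difference was below background, so the sizes are not exact.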

How the results depend on the processing

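The count of Ly6 tests past the threshold was 20 of 48 for the additions, with 18 after quantile normalization, 21 after median centring, 17 with only the arrays compared, 28 with array weights and 25 without the 3 arrays standing apart, and with 1 array left out it lay between 16 and 24. For origin it was 23 of 32 (22 to 24 with 1 array left out), for time 21 (20 to 21), for Ito against CD146 cells 9 of 16 (6 to 10) and for the difference of responses 9 of 24 (7 to 9). With the replicate number as a block the counts were the same (20 for the additions) and 0 of 152 member calls changed, as with the dimmest genes left out. Over all genes and contrasts 157107 tests passed, against 242797 with array weights and 155003 with the replicate block, and 149026 to 167804 with 1 array left out. Quantile normalization turned Ly6e in Kupffer cells with HGF over time to 0.19, and the cause was not tested. Ly6i in Kupffer Ito against CD146 cells at 3 days passed with all arrays (2.19), but both groups were below background and the call was lost without any 1 of the 6 arrays. The signal over background limits Ly6c1, Ly6c2 and Ly6i at the low end: of 73 called differences between groups, 28 had a group below background and 2 had both.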
